A study of Arabidopsis thaliana with 18 samples.

Results

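Of the 22746 probe sets tested, 33 measured one plastid-genome gene each whose symbol begins with psa, psb, pet or atp, or is rbcL. They were chosen by these symbols in the annotation supplied with the array, and each of the 33 genes had one probe set of its own. Of these genes 5 encode subunits of photosystem I, 15 belong to photosystem II, 6 to the cytochrome b6f complex and 6 to the ATP synthase, and rbcL encodes the large subunit of Rubisco. Transcripts were measured with Affymetrix arrays in Arabidopsis thaliana seedlings that were 5 days old and had grown on sucrose medium in continuous light. The 6 groups of 3 arrays were gun1-9 on 5 uM norflurazon, gun1-9 untreated, gun5 on 5 uM norflurazon, gun5 untreated, Col-0 on 5 uM norflurazon and Col-0 untreated, where Col-0 is the wild type. The series design calls the arrays of a group biological replicates. The labels name the 2 mutant lines and give no further allele, and RNA came from seedlings, with no organ named.

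The plastid genome of plants encodes the core proteins of the photosynthetic complexes, while the nucleus encodes the remaining subunits. Plastid genes are transcribed by a bacterial-type polymerase whose core is itself plastid-encoded, and by a phage-type polymerase imported from the cytosol, and many of them lie in transcription units whose RNA is cut into smaller pieces. Norflurazon inhibits the making of carotenoids, without which light bleaches and damages the plastid. GUN1 is a plastid protein of the pentatricopeptide repeat family, and the GUN5 gene encodes the subunit H of the chelatase that inserts magnesium into the chlorophyll precursor; the gun mutants are known for keeping nuclear photosynthesis genes active after plastid damage. The question of the comparison was how the response to norflurazon differs between the genotypes.

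Array medians lay between 14.8 and 16.4 intensity units, and r between arrays of one group was at least 0.992 across probe sets. One group stood apart on a control probe set for cytosolic 25S ribosomal RNA, which read 3143, 927 and 2370 in treated gun1-9 seedlings and between 19.6 and 96.9 on the other 15 arrays. A second control probe set read 669.7, 535 and 585 in untreated gun5 seedlings and between 2.47 and 4.2 on the other 15 arrays, those of treated gun5 included. Counts of genes called in gun5 are also given with the untreated Col-0 arrays in place of the untreated gun5 arrays. For the difference of response between gun5 and Col-0, this replacement cancels the untreated arrays. It leaves gun5 against Col-0 on norflurazon. The part of either control signal in the results was not tested. The plot of array medians and control probe sets shows both groups that stood apart.

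**Figure D1:**
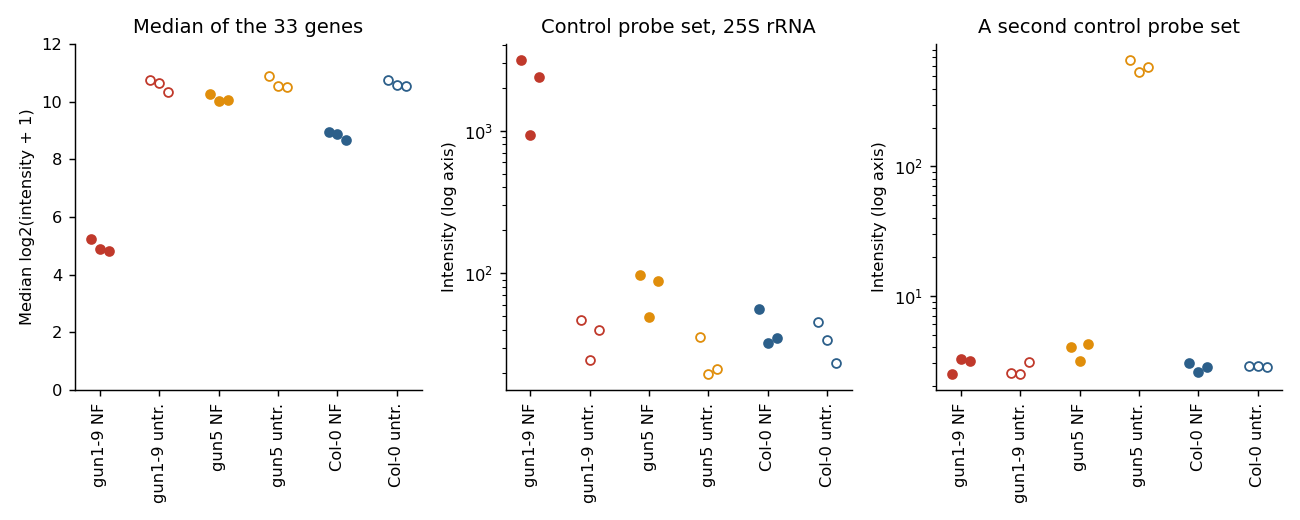
Each point is 1 array, with filled points for norflurazon (NF) and open points for untreated (untr.) seedlings of gun1-9, gun5 and Col-0; the left panel gives the median log2(intensity + 1) of the 33 genes, the other panels the intensity of 2 control probe sets on log axes. The 3 treated gun1-9 arrays lie at 4.82 to 5.23 in the left panel, against 8.67 to 8.96 for treated Col-0, while the control panels show 1 group each far above the other 15 arrays.

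On norflurazon, the median fall of the plastid photosynthesis transcripts was largest in gun1-9, smallest in gun5 and between them in Col-0. The fitted log2 differences had this order in 32 of the 33 genes, petD being the exception. Not every step was called, and both differences from Col-0 were called in 17 genes. The share of all probe sets in this order was not counted. In gun1-9 seedlings all 33 genes fell (limma, adjusted p under 0.05), where 15.7% of all probe sets fell. In gun5 seedlings 9 fell and 24 were not called, where 13.2% of all probe sets fell. In Col-0 seedlings 29 fell and 4 (petB, petD, petN and rbcL) were not called, where 15.1% of all probe sets fell. None rose in any genotype, where 20.5%, 15.7% and 24.2% of all probe sets rose in gun1-9, gun5 and Col-0. The median log2 difference over the 33 genes was -4.40 in gun1-9, -0.26 in gun5 and -1.05 in Col-0, against 0.02, 0.04 and 0.03 over all probe sets. As a share of the mean intensity in untreated seedlings of the same genotype, the median gene kept 4.77% in gun1-9, 84.5% in gun5 and 48.8% in Col-0. Fewer plastid-rich cells, fewer plastids and less RNA per plastid cannot be told apart in bulk RNA of seedlings.

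**Figure D2:**
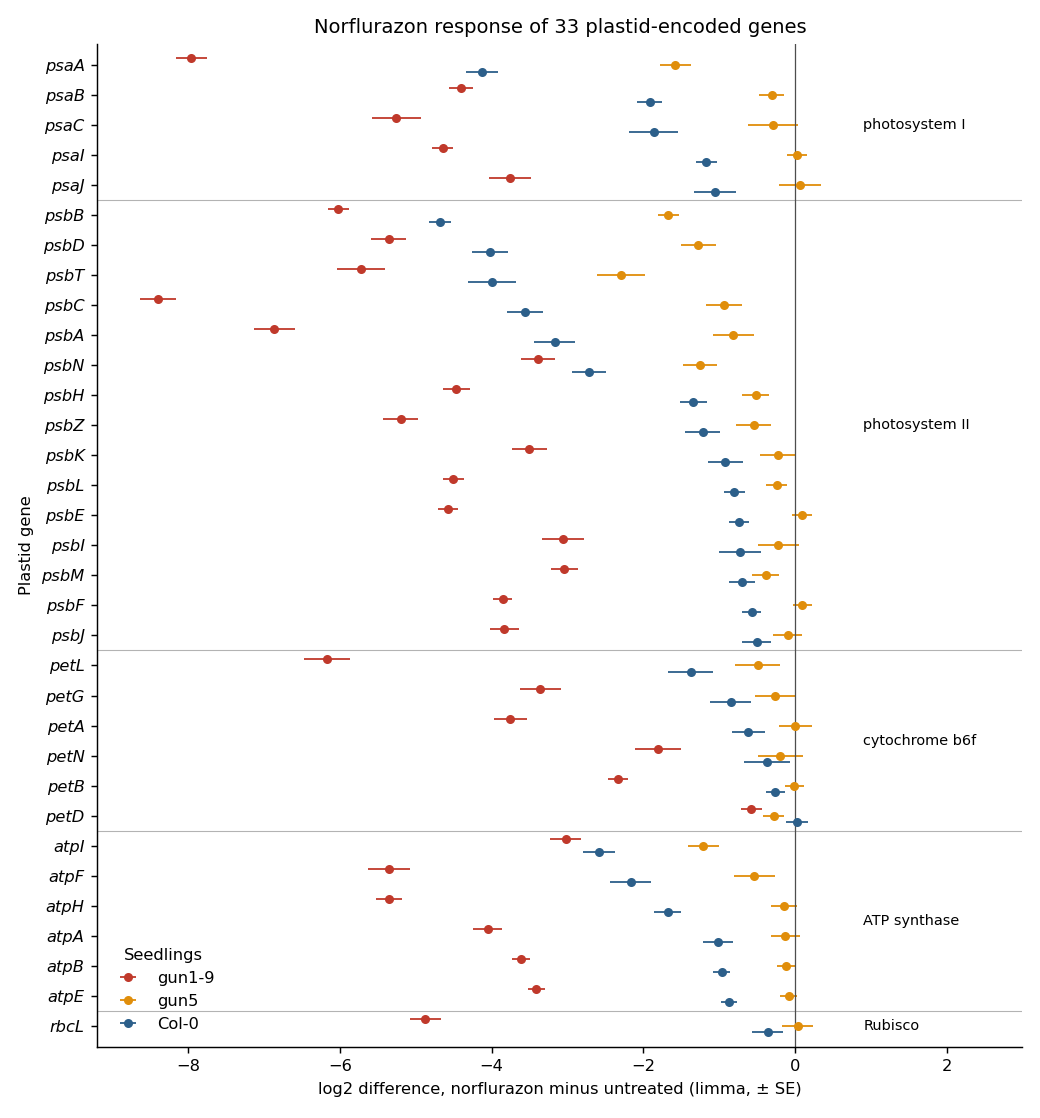
Points are the log2 difference between norflurazon and untreated seedlings for each of the 33 genes in gun1-9, gun5 and Col-0, with the standard error of the limma fit (SE, 3 arrays a group), ordered within each complex by the value in Col-0. The gun1-9 points lie furthest to the left and most gun5 points close to 0. The 9 genes called lower in gun5 include psbH at -0.51, while psbZ at -0.54 and atpF at -0.53 were not called.

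Without norflurazon, the genotypes were close. None of the 33 genes was called between untreated seedlings for gun1-9 against Col-0, for gun5 against Col-0 or for gun1-9 against gun5 (limma, 0 genes also at an unadjusted p under 0.05 in each). Over all probe sets 0.396%, 1.67% and 0.163% were called in these 3 comparisons. Median log2 differences of the 33 genes were -0.07, -0.06 and -0.03. On norflurazon, by contrast, all 33 genes were lower in gun1-9 than in Col-0 (12.3% of all probe sets) with a median log2 difference of -3.02, and 23 were higher in gun5 than in Col-0 (10.9% of all probe sets) with a median of 0.83. Against treated gun5, treated gun1-9 was lower for 32 of the 33 (6.55% of all probe sets) with a median of -4.08; petD was not called.

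Photosystem II splits water and is built around the reaction-centre proteins D1 and D2, from psbA and psbD, and the inner antennae CP47 and CP43, from psbB and psbC. These 4 transcripts fell in all 3 genotypes, with median log2 differences of -6.44 in gun1-9, -1.10 in gun5 and -3.79 in Col-0. The psbA transcript read 29.98, 11.5 and 12.02 in treated gun1-9 seedlings, against 2440.2, 1738 and 1881 in untreated gun1-9 seedlings. In gun5 it read 1193, 758 and 1093 on norflurazon, against 1969.8, 1503 and 1807 untreated, and in Col-0 221, 170.3 and 175 on norflurazon, against 1936, 1534 and 1628 untreated. No treated array reached an untreated one in any genotype, and treated gun1-9 lay lowest. The log2 difference of psbA was -6.87 ± 0.27 (SE, limma adjusted p = 5.33e-12) in gun1-9, -0.81 ± 0.27 (SE, adjusted p = 0.0313) in gun5 and -3.17 ± 0.27 (SE, adjusted p = 5.06e-08) in Col-0.

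For psbC, the gene with the most negative difference of all 22746 probe sets in gun1-9, the intensities were 9.04, 3.92 and 5.86 in treated gun1-9 seedlings, against 2882, 2260.3 and 1985 in untreated gun1-9 seedlings. In gun5 they were 1420.0, 1322 and 1053 on norflurazon, against 2769, 2122 and 2334 untreated, and in Col-0 297, 164 and 199 on norflurazon, against 2816, 2317 and 2472 untreated. All treated arrays lay below all untreated ones, and the treated gun1-9 arrays had fallen to levels under 10. The log2 difference was -8.40 ± 0.24 (SE, limma adjusted p = 1.13e-13) in gun1-9, -0.93 ± 0.24 (SE, adjusted p = 0.00614) in gun5 and -3.56 ± 0.24 (SE, adjusted p = 1.91e-09) in Col-0. With log2(intensity + 16) the value in gun1-9 was -6.74.

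Intensities of psbD were 8.58, 5.64 and 9.18 in treated gun1-9 seedlings, against 445, 335 and 296 in untreated gun1-9 seedlings. They were 177, 139 and 168 on norflurazon, against 453, 343 and 384 untreated in gun5, and 24.3, 16.9 and 38.98 on norflurazon, against 415, 446 and 417 untreated in Col-0. The groups again did not overlap, with the largest relative spread among treated Col-0 arrays. On the log2 scale the difference was -5.36 ± 0.23 (SE, limma adjusted p = 1.92e-11) in gun1-9, -1.28 ± 0.23 (SE, adjusted p = 4.56e-04) in gun5 and -4.02 ± 0.23 (SE, adjusted p = 3.08e-10) in Col-0. With log2(intensity + 16) the value in gun1-9 was -3.96.

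The CP47 gene psbB read 3.63, 3.92 and 4.23 in treated gun1-9 seedlings, against 325, 276 and 362 in untreated gun1-9 seedlings. It read 104, 75.2 and 95.9 on norflurazon, against 331, 249 and 298 untreated in gun5, and 8.97, 9.78 and 8.81 on norflurazon, against 275, 220.2 and 289.8 untreated in Col-0. Treated gun1-9 and treated Col-0 arrays were both under 10, and gun5 kept an intermediate level. Its log2 difference was -6.02 ± 0.14 (SE, limma adjusted p = 1.92e-14) in gun1-9, -1.67 ± 0.14 (SE, adjusted p = 1.44e-07) in gun5 and -4.68 ± 0.14 (SE, adjusted p = 6.88e-14) in Col-0, the most negative value of the 33 genes in Col-0. With log2(intensity + 16) the value in Col-0 was -3.45, behind psaA at -3.93 and psbC at -3.47.

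The other 11 photosystem II genes also fell in gun1-9 and in Col-0, by varying amounts. Cytochrome b559, from psbE and psbF, had median log2 differences of -4.21 in gun1-9, 0.10 in gun5 and -0.66 in Col-0, with neither gene called in gun5. The 8 small membrane subunits psbH, psbI, psbJ, psbK, psbL, psbM, psbT and psbZ had medians of -4.15, -0.31 and -0.86 in gun1-9, gun5 and Col-0. Among them psbT had the most negative difference in gun5 (-2.29) and in Col-0 (-4.00), and psbT and psbH were called lower in gun5. In treated gun1-9 seedlings psbT was dim, at 3.0, 3.53 and 4.69, around the mean first quartile of the arrays, 3.79, so its log2 difference of -5.72 there depends on the constant added before log2 and was -3.73 with log2(intensity + 16). The psbM transcript had the least negative difference of the complex in gun1-9: it read 985, 653 and 857 in treated gun1-9 seedlings, against 7288, 6905 and 6118 in untreated gun1-9 seedlings. Readings in gun5 were 7283, 5316 and 4107 on norflurazon, against 7475, 7246 and 6579.8 untreated, and in Col-0 4162, 4217 and 3409 on norflurazon, against 6958, 6311 and 5812 untreated. Treated and untreated gun5 arrays overlapped, while those of the other genotypes did not. The log2 difference of psbM was -3.04 ± 0.18 (SE, limma adjusted p = 7.60e-10) in gun1-9, -0.39 ± 0.18 (SE, not called, adjusted p = 0.116) in gun5 and -0.70 ± 0.18 (SE, adjusted p = 0.00425) in Col-0. The psbN gene, whose protein is needed for assembly of the reaction centre, was called lower in all 3 genotypes. It was also dim on treated gun1-9 arrays, at 2.61, 3.73 and 4.14, against 45.8, 45.9 and 44.9 on untreated gun1-9 arrays, and its log2 differences of -3.39 in gun1-9, -1.25 in gun5 and -2.72 in Col-0 were -1.66, -0.86 and -1.55 with log2(intensity + 16). The calls of psbA and psbH in gun5 were lost in 4 and 5 of 14 alternatives, and those of psbI and psbJ in Col-0 in 7 of 13 each.

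Photosystem I passes electrons to ferredoxin. The psaA and psaB genes encode its reaction-centre pair, and psaC encodes the subunit that holds the terminal iron-sulphur clusters. Its 5 genes fell in gun1-9 and in Col-0, and psaA was the member called lower in gun5. The psaA transcript read 5.90, 4.78 and 4.03 in treated gun1-9 seedlings, against 1829.5, 1652 and 1022 in untreated gun1-9 seedlings. It read 668, 716 and 467 on norflurazon, against 2296, 1697 and 1529.5 untreated in gun5, and 90.6, 91.8 and 109.6 on norflurazon, against 1684, 1777 and 1671 untreated in Col-0. The 3 treated groups were separated from each other and from the untreated arrays. These readings differed on the log2 scale by -7.96 ± 0.21 (SE, limma adjusted p = 5.53e-14) in gun1-9, -1.58 ± 0.21 (SE, adjusted p = 1.86e-05) in gun5 and -4.13 ± 0.21 (SE, adjusted p = 4.71e-11) in Col-0. The size in gun1-9 depends on the added constant, since the treated readings were dim, and was -6.14 with log2(intensity + 16).

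The partner psaB fell less: 323, 235 and 218 in treated gun1-9 seedlings, against 5904, 5017 and 5328 in untreated gun1-9 seedlings. The gun5 arrays gave 4431, 4351 and 4148 on norflurazon, against 5819, 4973 and 5234 untreated, and the Col-0 arrays 2136, 1265 and 1639 on norflurazon, against 6449, 6334 and 5849 untreated. Treated gun5 arrays lay just below the untreated ones, without passing the test. The fitted log2 difference was -4.40 ± 0.16 (SE, limma adjusted p = 1.93e-12) in gun1-9, -0.31 ± 0.16 (SE, not called, adjusted p = 0.176) in gun5 and -1.92 ± 0.16 (SE, adjusted p = 4.07e-08) in Col-0. The small subunit gene psaJ had the least negative difference of the complex in gun1-9. It read 591, 223 and 312 in treated gun1-9 seedlings, against 5338, 4449.9 and 4281 in untreated gun1-9 seedlings. In gun5 it read 5658, 4337 and 3981 on norflurazon, against 5798, 4187 and 3534 untreated, and in Col-0 3006, 2969 and 1951 on norflurazon, against 5922, 5702 and 4608 untreated. Only in gun5 did the treated and untreated psaJ arrays overlap. The log2 difference was -3.75 ± 0.28 (SE, limma adjusted p = 1.51e-08) in gun1-9, 0.06 ± 0.28 (SE, not called, adjusted p = 0.905) in gun5 and -1.05 ± 0.28 (SE, adjusted p = 0.00568) in Col-0. The remaining psaC and psaI fell by 5.26 and 4.65 on the log2 scale in gun1-9 and by 1.86 and 1.17 in Col-0, and neither was called in gun5 (-0.29 and 0.03). With log2(intensity + 16) psaC had -3.94 in gun1-9.

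The cytochrome b6f complex links the photosystems. Its large subunits are cytochrome f, cytochrome b6 and subunit IV, from petA, petB and petD, and petG, petL and petN encode small ones. All 6 genes fell in gun1-9, none was called in gun5 and 3 (petA, petG and petL) fell in Col-0. The median log2 difference was -2.84 in gun1-9, -0.22 in gun5 and -0.49 in Col-0. The petA transcript read 478, 245 and 197 in treated gun1-9 seedlings, against 3741, 3678 and 4136 in untreated gun1-9 seedlings. Readings in gun5 were 4167, 3443 and 3082 on norflurazon, against 3933, 3245 and 3432 untreated, and in Col-0 2678, 2529 and 2688 on norflurazon, against 3959, 4295 and 3858 untreated. The treated gun1-9 arrays stood far below all the others, the treated Col-0 arrays moderately below. On the log2 scale the difference was -3.75 ± 0.22 (SE, limma adjusted p = 7.16e-10) in gun1-9, 0.0046 ± 0.22 (SE, not called, adjusted p = 0.992) in gun5 and -0.62 ± 0.22 (SE, adjusted p = 0.0313) in Col-0. The petA call in Col-0 was lost in 8 of 13 alternatives, with adjusted p up to 0.0895 (limma).

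For petB the readings were 1480.2, 913 and 1125 in treated gun1-9 seedlings, against 5887, 5686 and 5817 in untreated gun1-9 seedlings. They were 6318, 5597 and 5695 on norflurazon, against 6173, 5413 and 6149 untreated in gun5, and 5205, 5009.6 and 5449 on norflurazon, against 6383, 6306 and 6023 untreated in Col-0. Treated Col-0 arrays were slightly below untreated ones and the gun5 groups overlapped. The log2 difference of petB was -2.33 ± 0.13 (SE, limma adjusted p = 3.48e-10) in gun1-9, -0.01 ± 0.13 (SE, not called, adjusted p = 0.969) in gun5 and -0.26 ± 0.13 (SE, not called, adjusted p = 0.124) in Col-0. The most negative difference of the complex was that of petL, which read 24.1, 10.2 and 12.97 in treated gun1-9 seedlings, against 1059, 951 and 1452 in untreated gun1-9 seedlings. It read 963, 702 and 586 on norflurazon, against 1270.1, 911 and 949 untreated in gun5, and 583, 324 and 286 on norflurazon, against 1207, 787 and 997 untreated in Col-0. The gun5 groups overlapped, and the other 2 genotypes showed separate groups. Its log2 difference was -6.17 ± 0.30 (SE, limma adjusted p = 7.76e-11) in gun1-9, -0.49 ± 0.30 (SE, not called, adjusted p = 0.256) in gun5 and -1.37 ± 0.30 (SE, adjusted p = 0.00135) in Col-0. The petD probe set was dim in every group, between 2.30 and 5.71 on all 18 arrays, around the mean first quartile of the arrays, 3.79. It read 2.58, 2.79 and 2.30 in treated gun1-9 seedlings, against 4.41, 4.03 and 4.44 in untreated gun1-9 seedlings, with a log2 difference of -0.58 ± 0.14 (SE, limma adjusted p = 0.00392).

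The chloroplast ATP synthase makes ATP from the proton gradient. Its plastid-encoded parts are alpha, beta and epsilon of the catalytic head CF1, from atpA, atpB and atpE, and 3 subunits of the membrane part CFo, from atpF, atpH and atpI. All 6 genes fell in gun1-9 and in Col-0, and atpI was called lower in gun5. Median log2 differences for CF1 were -3.62, -0.11 and -0.97 in gun1-9, gun5 and Col-0, and for CFo -5.35, -0.53 and -2.17. The atpA transcript read 366, 197 and 233 in treated gun1-9 seedlings, against 4825, 4449.9 and 3615 in untreated gun1-9 seedlings. The gun5 arrays gave 4813, 3900.5 and 3247 on norflurazon, against 4903, 4012 and 4023 untreated, and the Col-0 arrays 2869, 2298 and 2173 on norflurazon, against 5214, 5039 and 4522 untreated. The gun5 groups overlapped, and the others did not. These readings differed on the log2 scale by -4.05 ± 0.20 (SE, limma adjusted p = 7.58e-11) in gun1-9, -0.13 ± 0.20 (SE, not called, adjusted p = 0.70) in gun5 and -1.02 ± 0.20 (SE, adjusted p = 4.74e-04) in Col-0.

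Replicates of atpB were close together, at 758, 799 and 568 in treated gun1-9 seedlings, against 8998, 8875 and 7979 in untreated gun1-9 seedlings. They were 8594, 7407 and 7665 on norflurazon, against 9379, 8223 and 8033 untreated in gun5, and 4781, 4554 and 4491 on norflurazon, against 9689, 8846 and 8544 untreated in Col-0. Treated Col-0 arrays held about the middle between the treated gun1-9 arrays and the untreated ones on a linear scale. The fitted log2 difference was -3.62 ± 0.12 (SE, limma adjusted p = 4.72e-13) in gun1-9, -0.11 ± 0.12 (SE, not called, adjusted p = 0.526) in gun5 and -0.97 ± 0.12 (SE, adjusted p = 3.60e-06) in Col-0. Of the CFo genes, atpF, nearly level with atpH, had the most negative difference in gun1-9 and read 60.2, 31.5 and 34.5 in treated gun1-9 seedlings, against 2108, 1995 and 1141 in untreated gun1-9 seedlings. It read 1685, 1400.3 and 919 on norflurazon, against 2401, 1752 and 1565 untreated in gun5, and 496, 473 and 367 on norflurazon, against 2268, 1885 and 1831 untreated in Col-0. Treated Col-0 arrays lay between the treated gun1-9 and the treated gun5 arrays. The log2 difference was -5.35 ± 0.27 (SE, limma adjusted p = 1.49e-10) in gun1-9, -0.53 ± 0.27 (SE, not called, adjusted p = 0.166) in gun5 and -2.17 ± 0.27 (SE, adjusted p = 6.11e-06) in Col-0. The atpI probe set, the least negative of the complex in gun1-9, read 4.23, 4.05 and 3.99 in treated gun1-9 seedlings, against 44.97, 38.4 and 38.01 in untreated gun1-9 seedlings. It read 26.96, 17.97 and 22.1 on norflurazon, against 76.9, 49.3 and 37.5 untreated in gun5, and 9.11, 5.46 and 6.42 on norflurazon, against 50.2, 43.5 and 44.95 untreated in Col-0. Treated gun1-9 and treated Col-0 were both under 10, the gun1-9 arrays lowest. On the log2 scale the difference was -3.02 ± 0.21 (SE, limma adjusted p = 6.23e-09) in gun1-9, -1.21 ± 0.21 (SE, adjusted p = 2.67e-04) in gun5 and -2.59 ± 0.21 (SE, adjusted p = 2.35e-08) in Col-0. With log2(intensity + 16) these values were -1.49, -0.85 and -1.44.

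Rubisco fixes carbon dioxide, and its large subunit gene rbcL fell in gun1-9 alone among the tests run: it read 13.2, 9.10 and 8.79 in treated gun1-9 seedlings, against 316, 241 and 457 in untreated gun1-9 seedlings. In gun5 it read 332, 289 and 260.1 on norflurazon, against 293, 267 and 296 untreated, and in Col-0 320.1, 209 and 287 on norflurazon, against 387, 340.4 and 305 untreated. Treated gun1-9 arrays lay far below, and in the other genotypes treated and untreated arrays overlapped. Its log2 difference was -4.87 ± 0.20 (SE, limma adjusted p = 1.27e-11) in gun1-9, 0.04 ± 0.20 (SE, not called, adjusted p = 0.928) in gun5 and -0.36 ± 0.20 (SE, not called, adjusted p = 0.191) in Col-0. With log2(intensity + 16) the value in gun1-9 was -3.71. The difference of response was -4.52 ± 0.29 (SE, limma adjusted p = 6.52e-09) for gun1-9 minus Col-0, tested as an interaction.

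**Figure D3:**
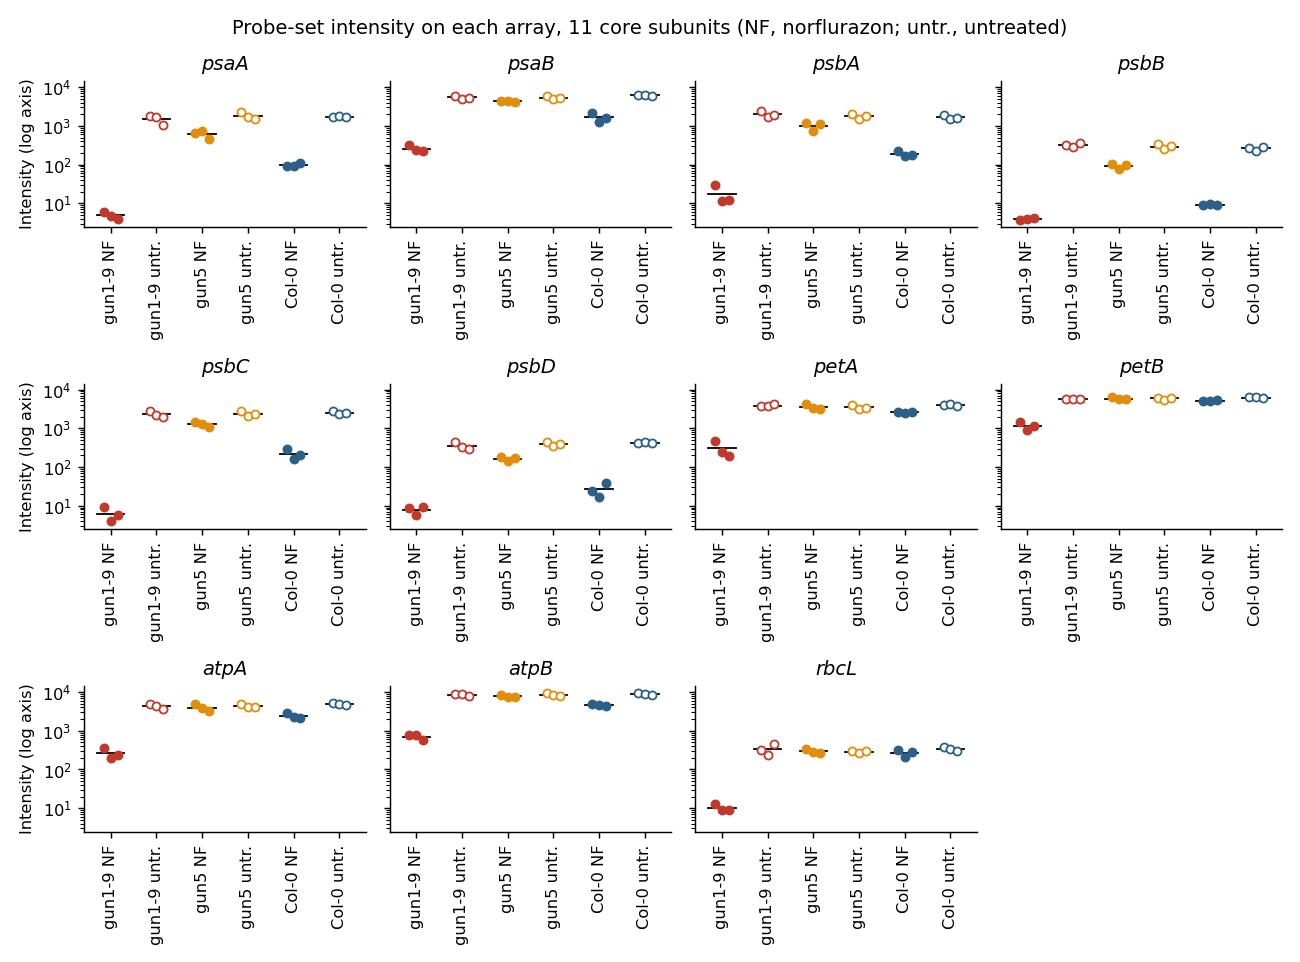
Each panel gives the intensity of 1 of 11 core subunit genes on each of the 18 arrays on a log axis, with filled points for norflurazon, open points for untreated seedlings and a line at the group mean. Treated gun1-9 is the lowest group in every panel, and for psbA the treated means are 17.8 in gun1-9, 1015 in gun5 and 189 in Col-0.

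Along the transcription units, the responses of neighbouring genes were not alike. In the psbB unit the log2 differences in gun1-9 were -6.02 for psbB, -5.72 for psbT, -4.46 for psbH, -2.33 for petB and -0.58 for petD. In gun5 the same genes gave -1.67, -2.29, -0.51, -0.01 and -0.28, and in Col-0 -4.68, -4.00, -1.34, -0.26 and 0.03. The photosystem II genes at the start of the unit had more negative values than the cytochrome genes at its end in each genotype. The difference between genes was not tested, and petD was dim throughout. In treated gun1-9, psbB and psbT had means under 10 as well. With log2(intensity + 16) psbB, psbT and psbH had -4.07, -3.73 and -4.15 in gun1-9, so their order there depends on the added constant. The psbN gene, which lies between psbT and psbH on the opposite strand, fell with them in each genotype.

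In the psbD unit, psbD, psbC and psbZ had log2 differences of -5.36, -8.40 and -5.20 in gun1-9, -1.28, -0.93 and -0.54 in gun5, and -4.02, -3.56 and -1.21 in Col-0. With log2(intensity + 16) they had -3.96, -6.74 and -4.77 in gun1-9, and psbD and psbC had -3.40 and -3.47 in Col-0. The place of psbD in the order thus depends on the added constant in both genotypes. In the psaA unit the first gene had the larger fall in each genotype (values above). In the large atp unit, atpI, atpH, atpF and atpA gave -3.02, -5.35, -5.35 and -4.05 in gun1-9 and -2.59, -1.68, -2.17 and -1.02 in Col-0. The atpI readings in treated gun1-9 were close to the mean first quartile of the arrays, which limits how far its value can fall. With log2(intensity + 16) atpI had -1.49 in gun1-9 and -1.44 in Col-0. In the psbE unit, psbE, psbF, psbL and psbJ were close, with -4.58, -3.85, -4.50 and -3.83 in gun1-9 and -0.74, -0.57, -0.80 and -0.50 in Col-0. In the small atp unit atpB and atpE had -3.62 and -3.41 in gun1-9 and -0.97 and -0.87 in Col-0. Differences between genes within a unit were not tested, and probe sets differ in how they respond.

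**Figure D4:**
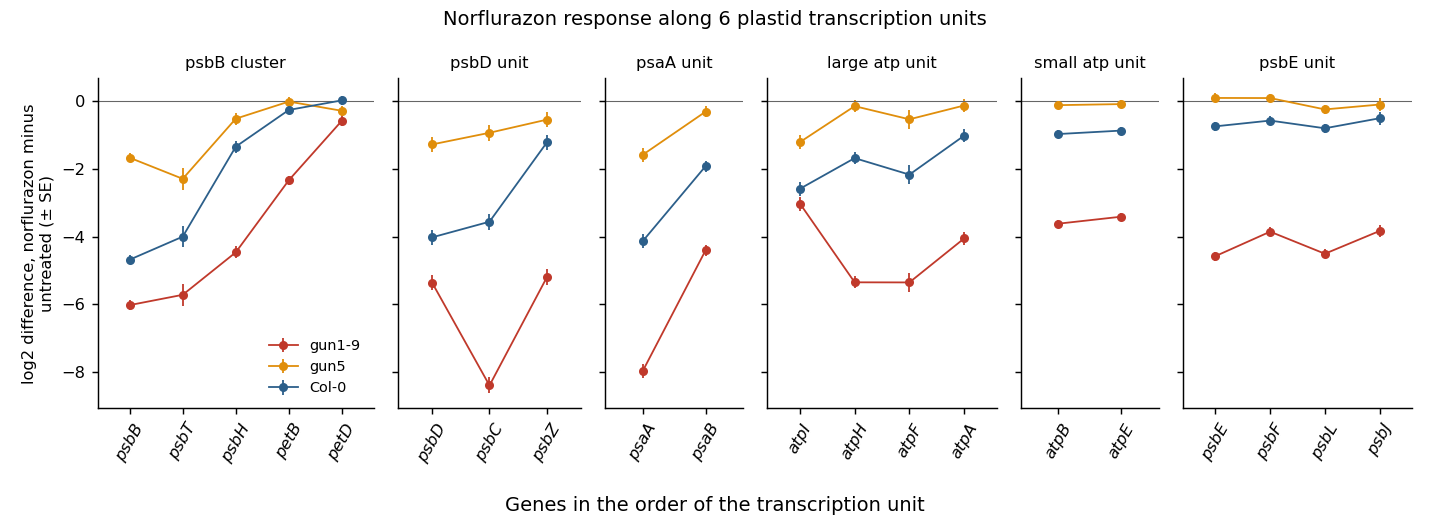
The log2 difference between norflurazon and untreated seedlings (± SE of the limma fit) is drawn for the genes of 6 transcription units in the order in which they are transcribed, for gun1-9, gun5 and Col-0. In the psbB unit the values move toward 0 from psbB to petD in Col-0, and in the psbE unit the 4 genes stay close together.

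The difference of response between genotypes was tested directly as an interaction. For gun1-9 minus Col-0 it was lower for 30 of 33 genes (7.21% of all probe sets), with a median log2 difference of -3.04, and atpI, psbN and petD were not called. For gun5 minus Col-0 it was higher for 19 (8.73% of all probe sets), with a median of 0.85. For gun1-9 minus gun5 it was lower for 32 (3.06% of all probe sets), with a median of -3.95, and petD was not called. Comparisons with Col-0 share the Col-0 arrays. In 17 genes the difference from Col-0 was called lower in gun1-9 and higher in gun5. The count was 21 where the second call was gun5 higher than Col-0 on norflurazon, without the untreated arrays. The share of all probe sets with both calls was not counted. It cannot exceed the 7.21% called lower for gun1-9 minus Col-0. By complex, the gun5 difference from Col-0 was called higher for 4 of 5 photosystem I genes, 9 of 15 photosystem II genes, 6 of 6 ATP synthase genes, none of 6 cytochrome b6f genes and not for rbcL. For gun5 against Col-0 on norflurazon, without the untreated arrays, these counts were 5, 11, 6 and 1, and rbcL was not called (10.9% of all probe sets were higher).

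The most negative difference for gun1-9 minus Col-0 was that of psbC (-4.84 ± 0.33, SE, limma adjusted p = 1.51e-08), followed by petL (-4.80 ± 0.42, SE, limma adjusted p = 2.87e-07) and rbcL. The most positive for gun5 minus Col-0 was psbB (3.01 ± 0.20, SE, limma adjusted p = 1.08e-08), followed by psbD (2.75 ± 0.33, SE, limma adjusted p = 9.33e-06). The 5 genes with treated Col-0 means under 10 were psbB, psbN, psbT, petD and atpI, and their gun1-9 differences from Col-0 lay between -1.72 and -0.44, while psbD had -1.33 and petN -1.44 and the other genes -4.84 to -2.08. These orders depend on dim treated readings. With log2(intensity + 16) the most negative for gun1-9 minus Col-0 were petL (-3.87), psbZ (-3.57) and rbcL (-3.37), with psbC at -3.27, and the most positive for gun5 minus Col-0 were psbC (2.54), psaA (2.38) and psbA (2.27), with psbB at 1.93. The calls of psbD, psbT and petN for gun1-9 minus Col-0 (-0.56, -0.91 and -0.80) and of psbT and atpI for gun5 minus Col-0 (0.84 and 0.59) were lost under that setting. Where the 3 untreated Col-0 arrays stood in for the untreated gun5 arrays, 10 genes fell in gun5 (13.5% of all probe sets). Then 32 were lower for gun1-9 minus gun5 (3.44% of all probe sets). For gun5 minus Col-0 the replacement cancels the untreated arrays. It leaves the 23 genes higher in gun5 than in Col-0 on norflurazon (10.9% of all probe sets), and so cannot check that difference of response. Across the 33 genes, Spearman's rho between the responses was 0.68 for gun1-9 with Col-0, 0.77 for gun5 with Col-0 and 0.40 for gun1-9 with gun5; the responses share no arrays, but the genes share transcription units.

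**Figure D5:**
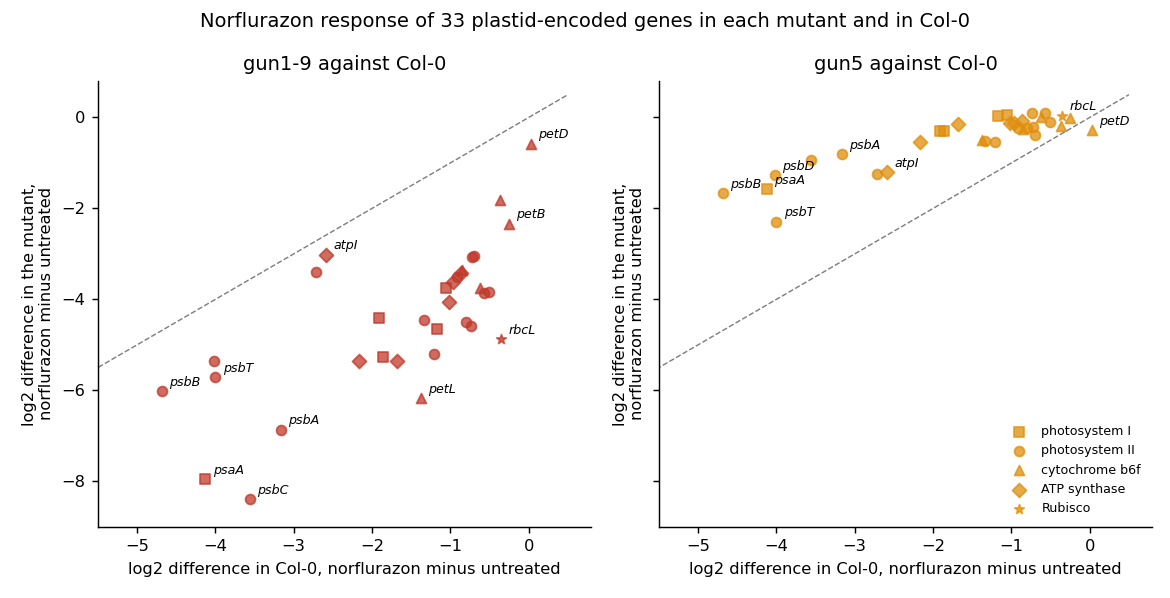
Each point is 1 of the 33 genes, with its log2 difference in Col-0 on the x axis and in gun1-9 (left) or gun5 (right) on the y axis, and the dashed line marks equal responses. All gun1-9 points lie below the line, and 32 of the 33 gun5 points lie above it.

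The other 36 measured plastid genes also fell in gun1-9 in most cases. They include 10 genes of the NADH dehydrogenase-like complex, which cycles electrons around photosystem I, 15 ribosomal protein genes and 4 genes of the plastid RNA polymerase. In gun1-9 34 of the 36 fell, where 15.7% of all probe sets fell. In gun5 2 fell and 3 rose, both smaller shares than the 13.2% and 15.7% of all probe sets. With untreated Col-0 in place of untreated gun5 arrays 2 fell and 2 rose, where 13.5% and 14.5% of all probe sets fell and rose. In Col-0 18 fell, where 15.1% of all probe sets fell. Of the 36 genes 4 were below the mean first quartile in treated gun1-9 seedlings, against 2 in untreated gun1-9 seedlings. Median log2 differences were -3.92, 0.11 and -0.63 in gun1-9, gun5 and Col-0. For the NADH dehydrogenase-like genes they were -4.86, -0.12 and -1.77, for the ribosomal protein genes -3.57, 0.09 and -0.14, and for the polymerase genes -4.05, 0.23 and -0.23. The fall in gun1-9 was thus also measured in other plastid genes. In Col-0, 3 of 15 ribosomal protein genes and 1 of 4 polymerase genes fell, which is near the 15.1% of all probe sets.

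Nuclear genes for subunits of the same complexes had a response that was less negative in gun1-9 than in Col-0. Of 39 listed, 7 had a probe set of their own. In gun1-9 6 of 7 fell, in gun5 5 fell, and in Col-0 6 fell, where 15.7%, 13.2% and 15.1% of all probe sets fell. ATPC2 rose in gun5 (15.7% of all probe sets), a call lost with untreated Col-0 in place of untreated gun5 arrays. The count that fell was then 5 again (13.5% of all probe sets). The 7 genes had median log2 differences of -0.60, -0.66 and -2.44. Set against Col-0, the response was higher for 6 of 7 in gun1-9 and for 6 of 7 in gun5 (medians 1.75 and 1.78), where 8.07% and 8.73% of all probe sets were higher. On norflurazon, without the untreated arrays, 6 of the 7 genes were also higher in gun5 than in Col-0 (10.9% of all probe sets). None was called for gun1-9 minus gun5, where 5.46% of all probe sets were called. PSAE1, a stromal subunit of photosystem I, read 5531, 5475 and 5090.0 in treated gun1-9 seedlings, 4684, 4476 and 4745 in treated gun5 and 916, 816 and 1044 in treated Col-0. Both mutants lay well above Col-0 for this gene, and the difference between treated gun1-9 and treated gun5 was not called (log2 difference 0.21, limma adjusted p = 0.130). Among 33 listed factors of plastid transcription and RNA handling, 2 were measured. RPOTMP, a phage-type RNA polymerase of organelles, read between 3.07 and 6.12 on all 18 arrays, around the mean first quartile of 3.79. It was called higher in gun1-9 (log2 difference 0.43, limma adjusted p = 0.0124), where 20.5% of all probe sets rose, and was not called in gun5 or Col-0. Readings this dim, like those of petD, leave such values uncertain. CRP1, a pentatricopeptide repeat protein known in maize for translation and processing of plastid pet RNAs, had -0.66, -0.39 and -1.72, all called lower.

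Markers of the organs were sparse. None of 11 listed seed markers, 2 of 5 root markers and 1 of 5 green shoot markers had a probe set of their own. RCA, Rubisco activase of green tissue, had mean intensities of 6500.2 ± 201 in treated gun1-9, 7323 ± 145 in treated gun5 and 2053 ± 198 in treated Col-0 (SD, n = 3), against 7374 ± 75.7, 7082 ± 459.9 and 7567 ± 32.6 in the untreated seedlings of the same genotypes. Its log2 differences were -0.18 in gun1-9, 0.05 in gun5 and -1.89 in Col-0. RCA is itself a nuclear photosynthesis gene, so its level cannot tell organ makeup from the gene's own response in gun mutants. EXPA7, an expansin of root hairs, had means of 127 ± 29.4 in treated gun1-9, 96.5 ± 31.0 in treated gun5 and 136 ± 40.0 in treated Col-0, against 49.2 ± 14.9, 60.03 ± 11.3 and 72.3 ± 36.0 in the untreated seedlings of the same genotypes. It was called higher on norflurazon in gun1-9 and Col-0 and not called in gun5. PYK10, a root glucosidase, was called higher in Col-0, at a log2 difference of 0.40, and not called in gun1-9 or gun5; its differences between genotypes were not called. The part of organ makeup in the falls of the plastid transcripts was not tested.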

How the data were processed

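Total RNA of seedlings was extracted with RNeasy columns, given a biotin label and applied to Affymetrix arrays, per the labels' protocols. The authors deposited 1 table of linear intensity values for 18 arrays, and the submitters' processing notes list GCRMA and MAS5 without version or role; all 18 columns were used. The labels do not say how cDNA was primed, and plastid RNA mostly lacks the poly(A) tails that oligo-dT priming needs; the effect was not tested. No genome build is named, so coordinates are not given.

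Of 22810 rows, 64 control probe sets were set aside. The supplied annotation names 1 gene for 13513 of the 22746 others, several for 503 and none for 8730. In R 4.3.3, limma 3.58.1 estimated group means of log2(intensity + 1) from all 18 arrays, with 12 two-sided contrasts and Benjamini-Hochberg adjustment over 22746 probe sets in each; calls had an adjusted p under 0.05. The added constant shrinks changes at low intensity, and each group mean rests on 3 arrays. Figures used matplotlib 3.10.9.

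In simulated data, 89% of 100 probe sets changed by 1 log2 unit and 100% of 100 changed by 2 units were called for the gun1-9 response, and 60% and 98% for gun1-9 minus Col-0, with 22746 probe sets each. Of the unchanged probe sets, 16 and 5 were called in these 2 comparisons. The simulation used independent normal noise around the untreated Col-0 means. It held no shared replicate effect and far fewer changed probe sets than the data, so its rates may not carry over. Values were given on each array for 11 core subunits and for the most and least negative member per complex in gun1-9; for a gene with several probe sets the one with the highest mean was used. The rule for the members uses gene symbols and no measured value, but it and the lists were chosen with earlier results of these data known. Alternatives were log2(intensity + 16), leaving out the dimmest 25% of probe sets, quantile normalization, median centring, eBayes with its trend and robust options, a fit restricted to the compared arrays, a replicate block and each array left out; untreated Col-0 arrays in place of untreated gun5 arrays were added after seeing the data.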

Additional observations from a re-analysis of the deposited data

Results flagged for a closer look

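The response to norflurazon differed between genotypes by the test of the difference itself. Of the 33 plastid-encoded photosynthesis genes, the difference was lower in gun1-9 than in Col-0 for 30, higher in gun5 than in Col-0 for 19, and lower in gun1-9 than in gun5 for 32 (limma, adjusted p under 0.05). On the log2(intensity + 1) scale the largest single differences were those of psbC, at -4.84 on the log2 scale for gun1-9 minus Col-0 and -7.46 for gun1-9 minus gun5, and of psbB, at 3.01 for gun5 minus Col-0. With log2(intensity + 16) psbC had -3.27 and -5.81, behind petL at -3.87 for gun1-9 minus Col-0, and psbB had 1.93, behind psbC at 2.54.

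Signals outside the comparisons appeared in 2 control probe sets. The one for cytosolic 25S ribosomal RNA averaged 2147 ± 1124 in treated gun1-9 seedlings (SD, n = 3), against 19.6 to 96.9 on the other 15 arrays. The other averaged 597 in untreated gun5 seedlings, against 2.47 to 4.2 on the other 15 arrays. Their part in the results was not tested. Single arrays within the groups of 3 were not tested as outliers.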

How the results depend on the processing

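Counts of called genes stayed within 1.5 times their value under all alternatives run. Genes called lower on norflurazon numbered 33 in gun1-9 throughout, 8 to 12 in gun5 and 26 to 30 in Col-0, and 7 to 11 and 25 to 28 in gun5 and Col-0 with 1 array left out. The difference gun1-9 minus Col-0 was lower for 27 to 31 genes (29 to 31 with 1 array left out), gun5 minus Col-0 was higher for 17 to 22 (16 to 20), and gun1-9 minus gun5 was lower for 30 to 32 (31 to 32). The range 17 to 22 leaves out the replacement of untreated gun5 arrays, which compares only treated seedlings for gun5 minus Col-0. On norflurazon, gun1-9 against Col-0 was lower for 28 to 33 genes (28 with log2(intensity + 16); 31 to 33 with 1 array left out), gun5 against Col-0 was higher for 20 to 26 (19 to 23) and gun1-9 against gun5 was lower for 32 to 33 (32 to 33). No count in the untreated seedlings left 0. With the replicate block, 33, 12 and 29 genes were called lower in gun1-9, gun5 and Col-0, and 31, 22 and 32 differed for gun1-9 minus Col-0, gun5 minus Col-0 and gun1-9 minus gun5. Deviations from group means correlated over 0.1 in 7 of 45 same-numbered pairs (median 0.046) and in 3 of 90 differently numbered pairs (median -0.017), and 14 of 18 arrays correlated best with their own number. Replicate 1 had the highest median of the 33 genes in 6 of 6 groups. This is a hint from the data of a shared effect; the labels give the samples only a number.

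No called difference reversed its direction. Values that were not called crossed 0 in 22 of 462 refitted single-gene values of the gun5 response and 3 of 429 in Col-0. Of the calls for single genes under the alternatives, psbA in gun5 was lost without untreated gun5 replicate 1 (log2 difference -0.73) or 3 (-0.79), without treated gun5 replicate 2 (-0.61) and with eBayes trend and robust settings. The petA call in Col-0 was lost without any one of the Col-0 arrays (-0.65 to -0.57) and with 2 other settings, and that of psbJ without any untreated Col-0 array or treated replicate 2 or 3 (-0.57 to -0.41). Those of psbI and petG were lost without untreated Col-0 replicate 1 or 2 or treated replicate 2 or 3 (psbI -0.73 to -0.61, petG -0.80 to -0.66), those of psbI and psbJ also with quantile normalization or eBayes trend and robust settings, and psbH in gun5 without untreated gun5 replicate 1 or 3 or treated replicate 2 or 3 (-0.54 to -0.36). For gun5 minus Col-0 the calls of atpA, psbH and psaC were lost in 9, 8 and 5 of 20 alternatives. These 20 include the replacement of untreated gun5 arrays, which here compares only treated seedlings. The petN differences were lost in 6 of 19 for gun1-9 minus Col-0 and 9 of 20 for gun1-9 minus gun5, and, with log2(intensity + 16), those of psbD and psbT for gun1-9 minus Col-0, of atpI for gun1-9 minus gun5, of psbT and atpI for gun5 minus Col-0 and of psbI in Col-0 were lost. The petD difference for gun1-9 minus Col-0 was called in 6 of 19. Median centring moved the share of higher calls over all probe sets by over 10 points for the Col-0 response (to 49.7%, from 61.6% without it), for gun5 minus Col-0 (66.3%, from 51.8%), and on norflurazon for gun5 against Col-0 (58.7%, from 39.7%) and gun1-9 against gun5 (39.1%, from 49.5%). The cause was not tested.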
